A study of Mus musculus with 2 samples.

Results

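The 44 genes described here encode keratins, junction proteins and regulators of epithelium, measured in limbs of mouse embryos at 12.5 days of development. The members were taken from a fixed list of gene symbols, looked up in the GENCODE M21 annotation, and all 44 were found among the 55536 gene entries of the tables. The RNA came from embryos of strain B6NCrl and was sequenced as polyA plus RNA, primed with oligo-dT. The study holds 1 group of 2 biological replicates, with neither a treatment nor a mutant allele. Replicate 1 was a pool of limbs from 88 embryos and replicate 2 a pool from 68 embryos, males and females mixed. Libraries started from 10 ng of RNA each, to which ERCC spike-ins were added. Whole limbs were used, so the surface layer was measured together with mesenchyme, muscle and vessels, and the pools carry no information on single embryos. Levels are deposited TPM values, a transcript abundance scaled by the authors for length and sequencing depth.

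The epidermis of the limb begins as an ectoderm of few layers over the mesenchyme, with a basal layer that divides and a flat outer layer, the periderm. Keratins are intermediate filament proteins that assemble as heterodimers of a type I and a type II chain, and the chains in use differ between basal, simple and differentiated epithelium. Desmosomes anchor these filaments at cell contacts through desmosomal cadherins, plakoglobin, plakophilins and desmoplakin. Tight junctions seal the space between cells through claudins and occludin, which bind scaffold proteins of the Tjp family.

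Of the 44 members, 40 (90.9%) reached 1 TPM in both libraries, against 27.3% of all gene entries and 58.1% of protein-coding genes. The exceptions were the mucosal keratin genes Krt4 and Krt13, the transcription factor gene Ovol1 and the desmosomal cadherin gene Dsg3. The members were low to moderate in level: their median was 6.31 TPM, and that of the 40 members at a mean of 1 TPM or more was 6.74 TPM, beside 15.3 TPM over all 15926 genes at that mean. At a mean of 10 TPM or more stood 15 members, and 25 stood at 5 TPM or more. Together they held 766 TPM in replicate 1 and 721 TPM in replicate 2. Krt14, Spint2, Krt5, Perp and Epcam led the list. In whole limb, fewer epithelial cells and less RNA per epithelial cell cannot be told apart. All levels are shares of the RNA measured, spike-ins included.

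**Figure D1:**
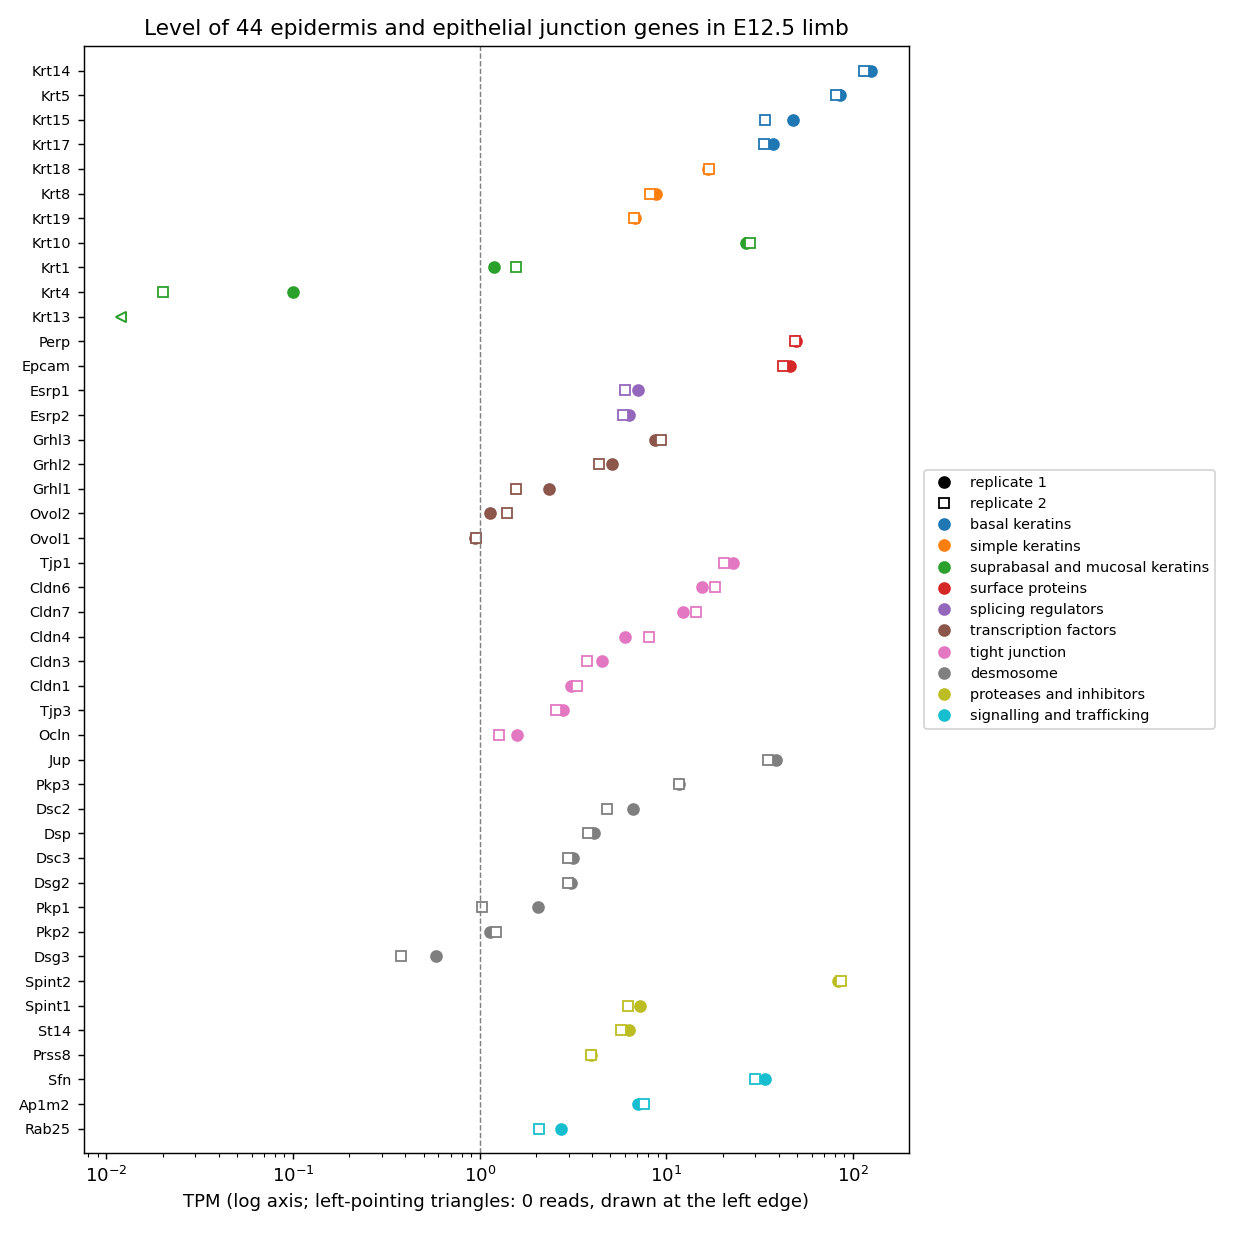
Level of each member in TPM (log axis) in replicate 1 (filled circles) and replicate 2 (open squares), coloured and grouped by role, with a dashed line at 1 TPM. Krt14 and Krt5 lie farthest to the right among the keratins, Krt4 lies far to the left, and Krt13, with 0 reads, is drawn as a triangle at the left edge.

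Expected counts of genes summed to 29633457 reads in replicate 1 and 30118921 in replicate 2, which puts 37.5 and 37.9 reads behind a transcript of 2000 nt at 1 TPM. The share of spike-ins in the reads was 3.19% in replicate 1 and 2.24% in replicate 2. In TPM their share was 7.34% and 5.13%, and the TPM of all genes summed to 926549 and 948721. All 6 listed markers of limb ectoderm reached 1 TPM in both libraries, and their summed level was 98.6 TPM in replicate 1 and 88.5 TPM in replicate 2. Of these 6, 3 also stand in other lists used here (Trp63, Cdh1 and Tfap2a). Markers of other cells of the limb were present as well: the 7 mesenchyme markers summed to 1849 and 1791 TPM, the 6 muscle markers to 792 and 768 TPM and the 6 endothelium markers to 146 and 137 TPM in replicates 1 and 2. Of 10 markers of gut, lung, kidney and liver only Lgr5 reached 1 TPM in both libraries, and Cdx2, Pax8 and Umod were at 0 TPM. Of 6 heart markers 3 did, with a sum of 10.2 TPM in replicate 1 and 7.93 TPM in replicate 2, and Nkx2-5 was at 0 TPM. Of 6 neural markers 3 did, with a sum of 39.0 TPM in replicate 1 and 44.9 TPM in replicate 2. Of 5 mesothelium markers Krt7 did, a keratin gene of simple epithelium that also stands in the list of other keratins used here. The part of these other cells in the members' levels was not tested.

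Promoter sequence from RefSeq (GRCm38.p6, 250 bases before to 50 bases after each annotated start, 30 windows) was at hand for 25 of the 44 members. The hexamer CAGGTG, an E box bound by repressors of the Snail and Zeb families that are known to act on epithelial genes, was searched on both strands, where it reads CACCTG on the other strand. It stood in a window of 17 of 25 members (68.0%), beside 22.6% of all 27025 genes with a window and 20.3% of 10457 such genes at 1 TPM in both libraries. In 9 of 25 members (36.0%) a window held it at 2 or more places, beside 3.32% of all genes. The sequences before the start are shown for Ap1m2, the member with most copies, for Spint2 and Epcam, members of high level with several copies, and for Krt5, the leading type II keratin gene, which has a copy farther from the start. They are read 5′ to 3′ on the gene's strand up to the last base before the start, with the hexamer on either strand in capitals, from chr9:21312334-21312583 (minus strand) for Ap1m2, chr7:29281978-29282227 (minus strand) for Spint2, chr17:87635729-87635978 (plus strand) for Epcam and chr15:101712906-101713155 (minus strand) for Krt5.
Ap1m2: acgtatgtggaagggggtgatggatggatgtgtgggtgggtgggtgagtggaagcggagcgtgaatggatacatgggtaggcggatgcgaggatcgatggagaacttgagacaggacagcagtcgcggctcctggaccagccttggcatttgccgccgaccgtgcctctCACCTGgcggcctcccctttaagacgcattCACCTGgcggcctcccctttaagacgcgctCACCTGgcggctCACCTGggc
Spint2: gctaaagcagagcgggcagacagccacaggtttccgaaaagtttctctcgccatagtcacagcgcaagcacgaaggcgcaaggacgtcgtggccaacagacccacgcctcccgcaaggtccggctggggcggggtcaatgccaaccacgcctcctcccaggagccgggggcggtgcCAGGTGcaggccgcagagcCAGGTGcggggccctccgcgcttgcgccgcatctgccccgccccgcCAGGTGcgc
Epcam: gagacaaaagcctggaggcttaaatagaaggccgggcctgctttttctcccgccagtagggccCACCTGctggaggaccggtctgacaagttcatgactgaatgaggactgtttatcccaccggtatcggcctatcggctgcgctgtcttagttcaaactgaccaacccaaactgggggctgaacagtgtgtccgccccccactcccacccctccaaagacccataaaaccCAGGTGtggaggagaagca
Krt5: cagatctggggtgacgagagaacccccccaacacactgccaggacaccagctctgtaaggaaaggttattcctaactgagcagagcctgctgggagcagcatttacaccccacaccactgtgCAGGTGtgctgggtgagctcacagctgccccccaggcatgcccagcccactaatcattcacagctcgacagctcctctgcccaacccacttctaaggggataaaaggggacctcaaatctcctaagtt

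In Ap1m2 the copies began 81, 51, 21 and 9 bases before the start, and the 30 bases from the first copy to the next matched the 30 bases that follow in 28 positions. In Spint2 the copies began 74, 55 and 9 bases before the start, in Epcam 187 and 19 bases before it, and in Krt5 128 bases before it. The last bases of 27 of the 30 windows occurred in an M21 transcript of the same gene. Those of Spint2, Cldn6 and Jup did not, so distances in these genes rest on the RefSeq start alone. Over all members, 25 of 30 sites (83.3%) lay from 100 bases before the start onwards, beside 48.6% of 7392 sites over all genes. That stretch makes up 50% of a window. A site of Ocln, which has 2 starts, was counted from the nearer start (position 8). It lies 213 bases before the other. Tight junction genes carried the hexamer in 6 of 8 cases, Krt8 and Krt18 both did, and Ap1m2, Rab25 and Sfn did. Members with a window but no copy were Cldn1, Grhl1, Jup, Krt13, Krt14, Ovol2, Spint1 and Tjp1. Median levels were 9.01 TPM over the 17 members with the hexamer and 4.97 TPM over the 8 without it.

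Among other listed genes, the hexamer stood in windows of 20 of 53 genes of the 7 other epithelial lists (37.7%) and of 8 of 34 markers of other cell types (23.5%). The 7 lists were uneven: 2 of 12 cornified envelope, 1 of 6 adherens junction and 1 of 5 transcription factor genes held it. So did 7 of 15 tight junction, 5 of 9 keratin, 3 of 5 hemidesmosome and basement membrane and 1 of 1 desmosome genes. None of the 6 mesenchyme markers with a window held it, and 5 of 7 markers of gut, lung, kidney and liver did. The median GC content of the windows was 58.3% for members, 52.7% for all genes and 60.7% for genes at 1 TPM in both libraries. A motif of AP-2 factors, GCCNNNGGC, stood in 8 of 25 members (32.0%), beside 18.5% of all genes and 29.1% of genes at 1 TPM. The Grainyhead motif AACCGGTT stood in 0 of 25 members, 0.174% of all genes and 0.306% of genes at 1 TPM, and its relaxed form AACNGGTT, which includes it, in 2 of 25 members (Rab25 and Sfn), 2.35% of all genes and 2.20% of genes at 1 TPM. The Ovo motif CCGTTA stood in 0 of 25 members, 3.15% of all genes and 4.53% of genes at 1 TPM. TATAAA stood in 2 of 25 members (8.0%, Krt8 and Krt10), beside 15.7% of all genes and 8.69% of genes at 1 TPM. These motifs were likewise searched on both strands. They are matches of letters, and binding was not measured.

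**Figure D2:**
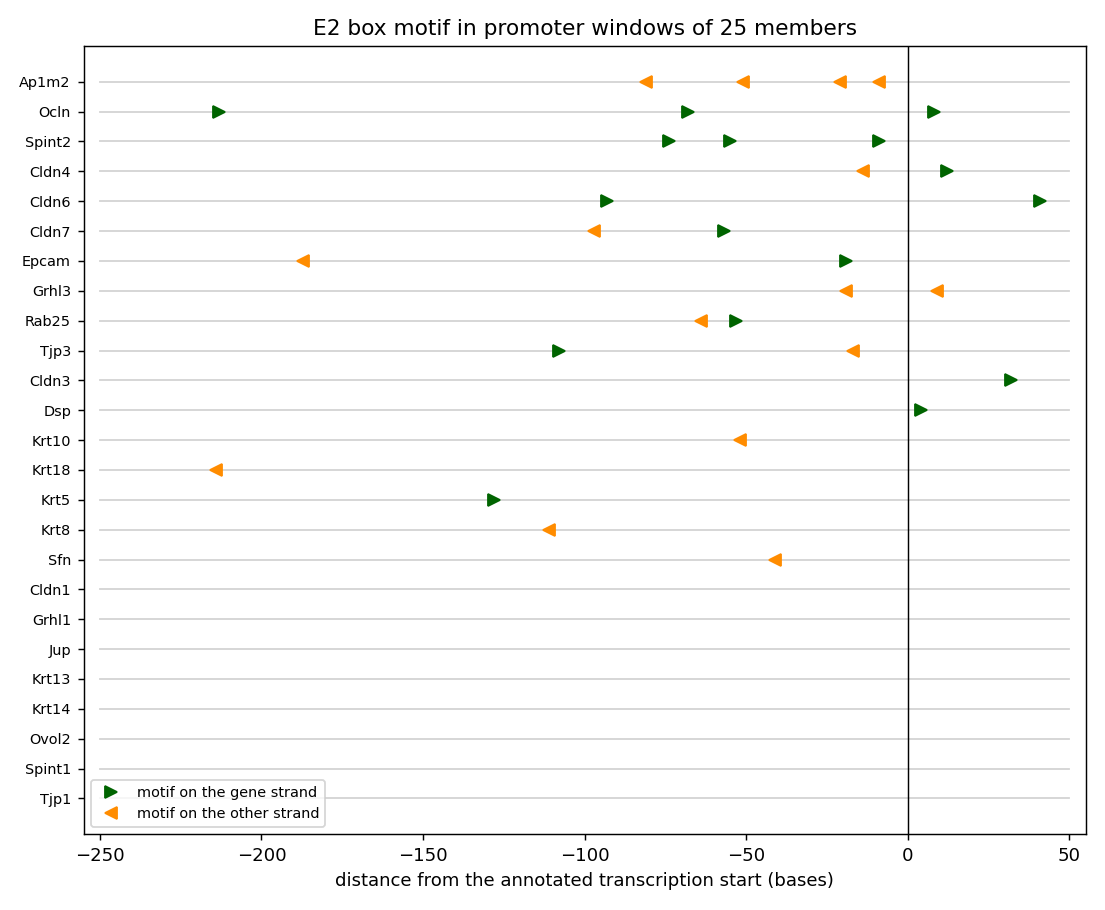
Place of each copy of CAGGTG in the promoter windows of 25 members, as distance in bases from the annotated start, on the gene's strand (right-pointing) or the other strand (left-pointing). Ap1m2 has 4 copies within the last 81 bases, and the 8 genes at the bottom have none. The copies of Tjp3 lie in windows of 2 different starts. Ocln also has 2 starts, and its marks at -213 and 8 are the same site seen from each start.

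**Figure D3:**
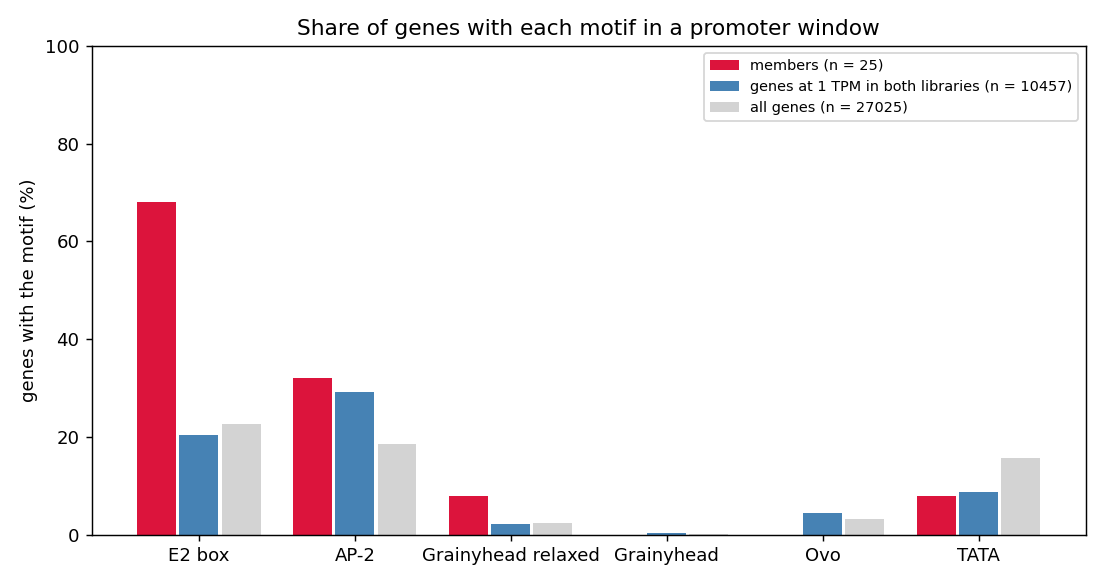
Share of genes (%) with each motif in a promoter window, for the 25 members, for 10457 genes at 1 TPM in both libraries and for all 27025 genes. The E2 box, CAGGTG, stands at 68.0% in members, 20.3% in genes at 1 TPM and 22.6% in all genes.

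Keratins of the basal layer were the most abundant group of members. The type I gene Krt14 (ENSMUSG00000045545.8, chr11:100203162-100207548, mm10) stood at 125 TPM in replicate 1 and 115 TPM in replicate 2, and its type II partner Krt5 (ENSMUSG00000061527.7, chr15:101707070-101712898) at 85.2 and 80.7 TPM, with 3526 and 3377 reads. Krt15, a type I keratin gene of basal cells, stood at 47.8 TPM in replicate 1 and 33.9 TPM in replicate 2, and Krt17, a type I gene known from developing appendages and stressed skin, at 37.4 and 33.2 TPM. All 4 basal keratin genes were higher in replicate 1.

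Differences between genes were set against the spread between libraries: a pair was counted as apart when its log2 TPM ratio had the same sign in both libraries and its smaller size was beyond the 95th percentile of the log2 difference between libraries of the 500 genes closest to the lower gene in mean TPM, drawn from those averaging at least 1 TPM. For the pairs with Ovol1 and Dsg3, which lie below that mean, the spread is therefore that of genes at 1 TPM. Krt14 lay 1.47-fold above Krt5 in replicate 1 and 1.42-fold in replicate 2, past a spread of 0.23 on the log2 scale. Krt17 and Krt15 were not apart. In Krt14 the coding transcript Krt14-201 (1698 nt) held 72.1% of the gene's TPM in replicate 1 and 67.6% in replicate 2, and the rest was assigned to the noncoding transcript Krt14-202 (1122 nt). Krt14-201 alone was at 90.1 and 77.6 TPM, above Krt5 in replicate 1 and below it in replicate 2. Of the 100-base stretches of Krt14 transcripts 2.78% also occur in other genes, mainly Krt16, and of those of Krt5 3.81%, mainly Krt6a; Krt16 was at 0 TPM in both libraries and Krt6a at 0.43 and 0.47 TPM.

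Keratin genes of simple epithelium and periderm were lower. Krt18, the type I chain, stood at 16.8 TPM in replicate 1 and 16.9 TPM in replicate 2, its type II partner Krt8 at 8.79 and 8.19 TPM, and Krt19, a type I gene, at 6.81 and 6.68 TPM. Krt18 lay 1.91-fold and 2.06-fold above Krt8, apart by the same measure. The level of Krt8 is uncertain, since 17.1% of its 100-base stretches also occur elsewhere, nearly all in the pseudogene Krt8-ps. Basal chains were higher than simple ones of the same type: Krt5 was 9.77-fold above Krt8 and Krt14 7.12-fold above Krt18 as the geometric mean of the 2 libraries, and Krt15 was 5.97-fold above Krt19, all past the spread.

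Keratin genes of differentiated layers were uneven. Krt10, the type I keratin gene of suprabasal cells, stood at 26.8 TPM in replicate 1 and 28.1 TPM in replicate 2, whereas its type II partner Krt1 stood at 1.19 and 1.57 TPM, on 48 and 49 reads. Most of the Krt10 level came from the short coding transcript Krt10-202 (557 nt), with 85.2% of the gene's TPM in replicate 1 and 88.8% in replicate 2 but 57.0% and 64.6% of its reads. The full-length transcript Krt10-201 (2094 nt) stood at 3.95 and 3.14 TPM. With the GENCODE M4 annotation Krt10 stood at 9.55 and 9.25 TPM. The gene level of Krt10 was 20.1-fold above that of Krt1 on average, and 9.14-fold with M4. Both were past the spread, which was taken from M21 in each case. Krt4, a keratin gene of internal stratified epithelium, had 4 reads in replicate 1 and 1 in replicate 2, and its partner Krt13 had 0 reads in both, which allows up to 0.220 TPM in replicate 1 and 0.217 TPM in replicate 2 (3 reads, counting error only).

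Summed over the 11 keratin members, the 7 type I genes held 261 TPM in replicate 1 and 234 TPM in replicate 2, and the 4 type II genes 95.2 and 90.5 TPM. The ratio of type I to type II was 2.74 in replicate 1 and 2.58 in replicate 2, and 2.54 and 2.37 with M4. With the 13 other listed keratin genes added, the ratio was 2.27 and 2.16. Krt14 and Krt5 together made up 59.1% and 60.4% of the TPM of keratin members. Of the 13 other keratins only Krt7, a type II gene of simple epithelium, reached 1 TPM in both libraries, at 19.0 and 16.9 TPM. The next were Krt6a and then Krt20 at 0.33 and 0.14 TPM, and Krt76 was at 0 TPM.

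Both surface protein genes of epithelium stood above 40 TPM. Perp, a tetraspan protein of desmosomes, stood at 49.8 TPM in replicate 1 and 48.8 TPM in replicate 2, and Epcam (ENSMUSG00000045394.9, chr17:87635979-87651129), the epithelial cell adhesion molecule, at 45.8 and 42.2 TPM. Epcam and Perp were not apart with M21 (mean log2 ratio -0.16). With M4 Epcam lay below Perp, past the M21 spread of 0.25 (mean log2 ratio -0.50). Esrp1 and Esrp2, epithelial splicing regulators, had like levels, with Esrp1 at 7.03 and 5.98 TPM and Esrp2 at 6.32 and 5.89 TPM, and were not apart either. Esrp1 was split over 3 coding transcripts: Esrp1-204 held 43.2% and 34.9% of its TPM, Esrp1-203 32.0% and 34.1%, and Esrp1-201 23.0% and 26.9%. In Esrp2 the transcript Esrp2-201 held 69.1% and 65.1%.

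Transcription factor genes among the members were low. Grhl3, a grainyhead-like factor needed for the skin barrier in mouse, was highest at 8.68 TPM in replicate 1 and 9.34 TPM in replicate 2. Grhl2, a grainyhead-like regulator of epithelial junction genes, stood at 5.09 and 4.34 TPM, and Grhl1, a grainyhead-like factor of desmosome genes, at 2.36 and 1.56 TPM. Neither Grhl2 and Grhl3 nor Grhl2 and Grhl1 were apart by the spread over all genes. Both pairs were past the narrower spread over protein-coding genes, an alternative chosen after seeing the data. Ovol2, a zinc finger repressor that keeps epithelial identity, stood at 1.13 and 1.40 TPM on 32 and 35 reads, and its relative Ovol1 at 0.94 and 0.95 TPM, just under the minimum. Of the 100-base stretches of Ovol1 17.5% also occur in the annotated gene Gm31166, and of those of Ovol2 7.56% occur in other genes. In Grhl1 the transcript Grhl1-202 held 46.2% of TPM in replicate 1 and 98.7% in replicate 2, on 147 and 105 reads for the gene.

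Tight junction genes were all detected, and a scaffold gene led them. Tjp1, the scaffold protein ZO-1, stood at 22.7 TPM in replicate 1 and 20.4 TPM in replicate 2, and Tjp3, a related scaffold, at 2.79 and 2.57 TPM, so that Tjp1 was 8.04-fold higher on average. Ocln, the membrane protein occludin, was at 1.58 and 1.27 TPM, 15.2-fold below Tjp1. Both differences were past the spread. Tjp1-202 (7049 nt) held 63.8% and 72.3% of the TPM of Tjp1.

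Among claudin members, Cldn6, known from embryonic epithelia, was highest at 15.5 TPM in replicate 1 and 18.1 TPM in replicate 2, followed by Cldn7 at 12.2 and 14.5 TPM. Cldn4 stood at 6.02 and 8.03 TPM, Cldn3 at 4.5 and 3.76 TPM, and Cldn1, which is needed for the epidermal water barrier in mouse, at 3.09 and 3.31 TPM. Cldn6 was 5.25-fold above Cldn1 on average, past the spread. Cldn6 and Cldn7, and Cldn3 and Cldn4, were not apart. Cldn7 was divided between Cldn7-201 (1335 nt), with 59.4% and 57.6% of TPM, and the short coding Cldn7-205 (373 nt), with 39.9% and 41.3%, which rested on 12.9% and 13.6% of the reads. Of 20 other tight junction genes 15 passed 1 TPM in both replicates, led by the polarity gene Pard3 at 41.7 and 40.4 TPM and the adhesion molecule gene F11r at 28.8 and 26.2 TPM, with Cldn15 lowest at 0.08 and 0.29 TPM.

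Desmosome genes were led by Jup, plakoglobin, which also serves adherens junctions, at 38.5 TPM in replicate 1 and 35.2 TPM in replicate 2. Dsp, desmoplakin, which ties keratin filaments to the desmosome, was at 4.12 and 3.80 TPM, and Jup was 9.30-fold above it on average, past the spread. Dsp was split between Dsp-202 (7761 nt), with 70.9% and 69.7% of TPM, and Dsp-201 (9592 nt). Of the plakophilins, which cluster desmosomal proteins, Pkp3 stood at 11.6 TPM in both libraries, Pkp1 at 2.05 and 1.03 TPM, and Pkp2 at 1.13 and 1.23 TPM. Pkp2 was 0.551 of Pkp1 in replicate 1 and 1.19-fold above it in replicate 2, and 0.0972 and 0.106 of Pkp3. For the pairs with Pkp2 no spread could be set, because over 5% of genes at its level had 0 TPM in a library. Pkp3-201 held 58.3% and 57.5% of the TPM of Pkp3, with a retained intron transcript, Pkp3-205, at 18.9% and 24.0%.

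The desmosomal cadherins were low. Dsc2 stood at 6.62 TPM in replicate 1 and 4.79 TPM in replicate 2, Dsc3 at 3.15 and 2.97 TPM, Dsg2 at 3.09 and 2.99 TPM, and Dsg3, a cadherin of basal epidermis, at 0.58 and 0.38 TPM. Neither Dsc2 and Dsc3 nor Dsg2 and Dsg3 were apart by the spread over all genes. That spread is wide at the level of Dsg3, at 2.53 on the log2 scale. Dsg2 lay 5.33-fold above Dsg3 in replicate 1 and 7.87-fold in replicate 2, with log2 ratios of 2.41 and 2.98. In Dsc2 the leading transcript Dsc2-202 held 46.2% and 61.6% of TPM and Dsc2-201 43.8% and 33.4%. Of 6 other desmosome genes only Pkp4 reached 1 TPM in both libraries, at 13.6 and 14.9 TPM. Dsg1a and Dsg1b, cadherins of differentiated epidermis, were at most 0.06 TPM, and Dsc1 was at 0 TPM.

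Among membrane serine proteases and their inhibitors, the inhibitor Spint2 (ENSMUSG00000074227.12, chr7:29256323-29281912) stood out at 82.7 TPM in replicate 1 and 85.7 TPM in replicate 2, close to Krt5. The related inhibitor Spint1 was at 7.24 and 6.24 TPM, and Spint2 was 12.5-fold above it on average, past the spread. St14, the protease matriptase, stood at 6.30 and 5.69 TPM and Prss8, the protease prostasin, at 3.93 and 3.95 TPM. St14 was not apart from Prss8, nor Spint1 from St14. Sfn, stratifin, an adaptor protein of stratified epithelium, was at 33.8 and 29.7 TPM. Ap1m2, a subunit of the epithelial clathrin adaptor that sorts proteins to the basolateral surface, was at 7.05 and 7.59 TPM, and Rab25, a small GTPase of epithelial recycling, at 2.74 and 2.09 TPM on 37 and 41 reads.

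Genes of cell attachment were broadly detected beside the members, and those of the cornified layer in part. All 10 hemidesmosome and basement membrane genes passed 1 TPM in both replicates, led by Itga6 at 25.6 and 23.9 TPM, Dst at 18.6 and 20.3 TPM and Plec at 17.1 and 19.4 TPM, and the lowest were Lamb3 at 1.57 and 1.73 TPM and Lama3 at 1.67 and 1.63 TPM, which have the same mean. All 10 adherens junction genes did too, from Nectin1 at 4.71 and 4.38 TPM up to Afdn at 53.6 and 61.0 TPM, Ctnna1 at 147 and 156 TPM and Ctnnb1 at 578 and 580 TPM. Of 12 epidermal transcription factor genes 11 did, led by Ets2 at 96.1 and 99.2 TPM, Tfap2b at 39.0 and 42.0 TPM and Trp63, the regulator of stratified epithelium, at 24.2 and 19.7 TPM. Ehf was lowest at 0.08 and 0.11 TPM. In whole limb these levels need not come from epidermis, and which cells they came from was not tested. Of 15 cornified envelope genes 5 did, with loricrin (Lor) highest with M21 at 2.92 and 3.76 TPM, then Ppl at 2.59 and 2.62 TPM and Evpl at 2.54 and 1.91 TPM, and Sprr1b at 0 TPM. This order holds for M21: Sbsn, suprabasin, stood at 16.9 TPM in replicate 1 and 16.6 TPM in replicate 2 with M4, where it was the highest of the list, and at 1.77 and 1.35 TPM with M21.

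In all, 13 of the 25 gene pairs with a finite spread were past it, and the 2 pairs with Pkp2 could not be judged. A further listed pair, Krt13 and Krt4, had no ratio because Krt13 had no reads. For the 25 members at a mean of 5 TPM or more, 8 had 1 annotated transcript, and in the other 17 the leading transcript held a median of 75.5% of TPM. The leading share was under 75% in both libraries for Krt14, Tjp1, Cldn7, Pkp3, Esrp1, Esrp2 and Dsc2.

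Reads of the 2 libraries were compared gene by gene with an exact binomial test (two-sided, library sizes scaled by edgeR's TMM, Benjamini-Hochberg adjustment over 15926 genes), which compares these libraries and covers counting error only. A gene was called when its adjusted p was below 0.05 and its TPM ratio reached 2-fold. Of the 40 members tested 0 were called, beside 1.07% of all genes, with 0.458% higher in replicate 1 and 0.609% higher in replicate 2. Without the 2-fold minimum 11 members passed, 10 of them higher in replicate 1, beside 19.3% of all genes, 9.88% higher in replicate 1 and 9.46% higher in replicate 2. The 10 were Krt14, Krt15, Krt17, Esrp1, Grhl1, Tjp1, Jup, Pkp1, Dsc2 and Sfn, and Cldn4 was higher in replicate 2. At an unadjusted p under 0.05, 15 of the 40 members passed the exact binomial test, beside 30% of all genes, and 5 passed the edgeR exact test with a common dispersion, beside 6.35% of all genes. That dispersion was estimated from these same 2 libraries, so their typical difference is built into it. A low share passing the edgeR exact test follows in part from this construction, and the test is no separate check.

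The plakophilin gene Pkp1 came nearest to a call, 1.99-fold higher in replicate 1 on 174 reads against 92, with an adjusted p of 7.34e-06 in the exact binomial test and 0.00941 in the edgeR exact test. Pkp1 was the only member that passed the edgeR exact test at an adjusted p under 0.05 without a fold minimum, beside 178 genes in all. Krt15 was 1.41-fold higher in replicate 1, on 1500 reads against 1070, with an adjusted p of 1.27e-16 in the exact binomial test and 0.0984 in the edgeR exact test. Among members it was the only gene whose log2 ratio (0.50) lay beyond the 95% spread of genes of like level (0.26). Dsc2 was 1.38-fold higher in replicate 1, with an adjusted p of 5.44e-05 in the exact binomial test and 0.398 in the edgeR exact test. Cldn4 was lower in replicate 1, with a log2 ratio of -0.42. Its adjusted p was 0.0139 in the exact binomial test and 0.720 in the edgeR exact test.

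Of the 40 members tested, 26 (65.0%) were higher in replicate 1 and 13 in replicate 2, beside 46.7% of all genes higher in replicate 1. Their median log2 ratio was 0.10, beside -0.01 over all genes tested. By role, those higher in replicate 1 were 4 of 4 basal, 2 of 3 simple and 0 of 2 suprabasal keratin genes, 2 of 2 surface protein genes, 2 of 2 splicing regulators, 2 of 4 transcription factors, 4 of 8 tight junction genes, 6 of 8 desmosome genes, 2 of 4 proteases and inhibitors and 2 of 3 genes of signalling and trafficking. Differences between roles were not tested. Of the markers tested, those higher in replicate 1 were 6 of 6 for limb ectoderm, 5 of 7 for mesenchyme, 5 of 6 for endothelium, 4 of 6 for muscle, 3 of 3 for heart and 1 of 3 for neural cells. In the other epithelial lists they were 5 of 10 hemidesmosome and basement membrane, 6 of 10 adherens junction and 6 of 11 transcription factor genes. The rest gave 11 of 17 tight junction genes, 3 of 5 cornified envelope genes, 1 of 1 keratin genes and 0 of 1 desmosome genes. Of the 3 neural markers tested, Tubb3 stood at 7.13 TPM in replicate 1 and 11.5 TPM in replicate 2, and Stmn2 at 5.66 and 8.79 TPM. Nes, the most abundant, went the other way, at 25.4 and 23.5 TPM. The part of these other cells, of the number of embryos pooled and of the spike-in share in the differences was not tested.

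**Figure D4:**
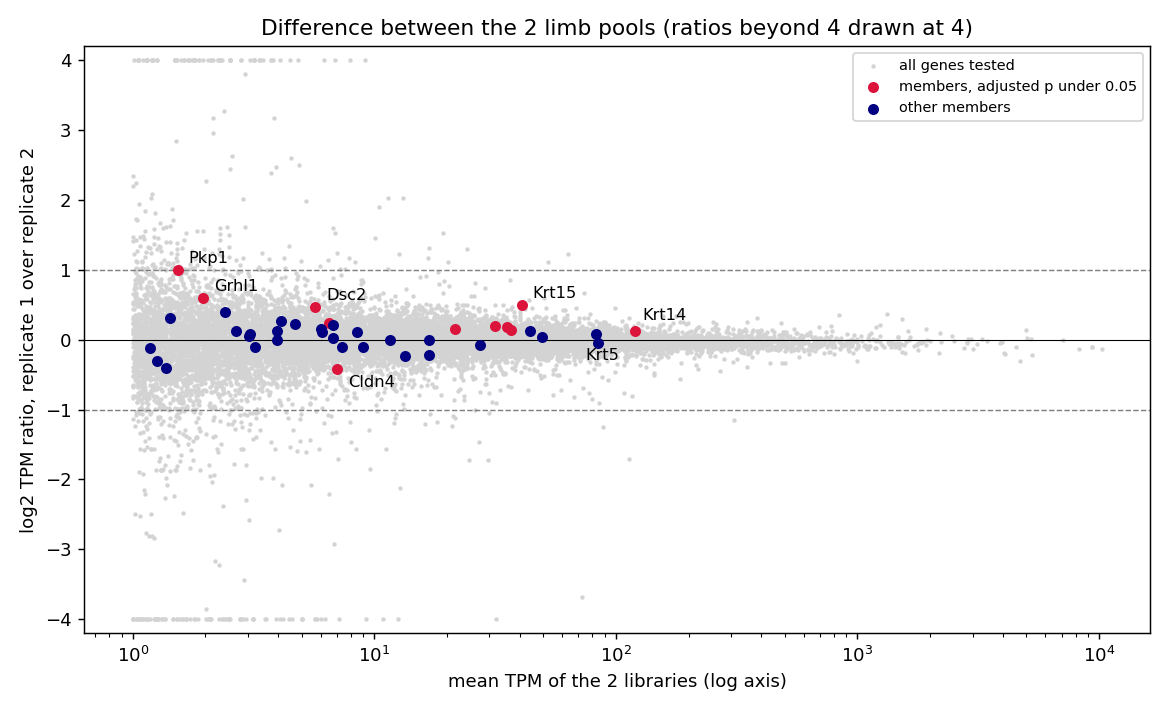
Log2 TPM ratio of replicate 1 over replicate 2 against mean TPM (log axis) for 15926 genes (grey), with members at an adjusted p under 0.05 in red and the other members in blue, and dashed lines at 2-fold. Pkp1 lies just inside the upper line at 0.99, and Krt15 stands out from genes of its level at 0.50.

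The authors also deposited levels for the GENCODE M4 annotation. Over the 40 members at a mean of 1 TPM or more, the median ratio of M4 to M21 was 1.06, and 39 lay within 1.5-fold. The exception was Krt10, at 0.34 of its M21 level. With M4, 31 of the 40 members were higher and the other 9 lower. The share over all genes was not computed. Many of those higher, such as Cldn1, Cldn3, Cldn4, Dsp and Sfn, lay close to the median ratio of 1.06, so the count is not read as a trait of the members. Next to Krt10, the largest differences in log2(TPM + 1) among those lower were Tjp3 at 1.83 and 2.01 TPM, Krt1 at 0.98 and 1.08 TPM, Epcam at 39.2 and 36.2 TPM and Dsc3 at 3.16 and 2.71 TPM. The largest among those higher were Pkp3 at 13.9 TPM in both libraries, Krt8 at 10.1 and 9.45 TPM, Perp at 53.7 and 52.8 TPM, Krt18 at 18.01 and 18.26 TPM and Cldn7 at 13.1 and 15.4 TPM. Of the 44 members 12 share 100-base stretches with other annotated genes, which leaves the assignment of their reads uncertain. Beside those named above, the share was 4.14% in Dsp, 4.03% in Sfn, 2.94% in Esrp2 and 2.85% in Dsg2, and below that in Prss8, Esrp1 and Grhl2.

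**Figure D5:**
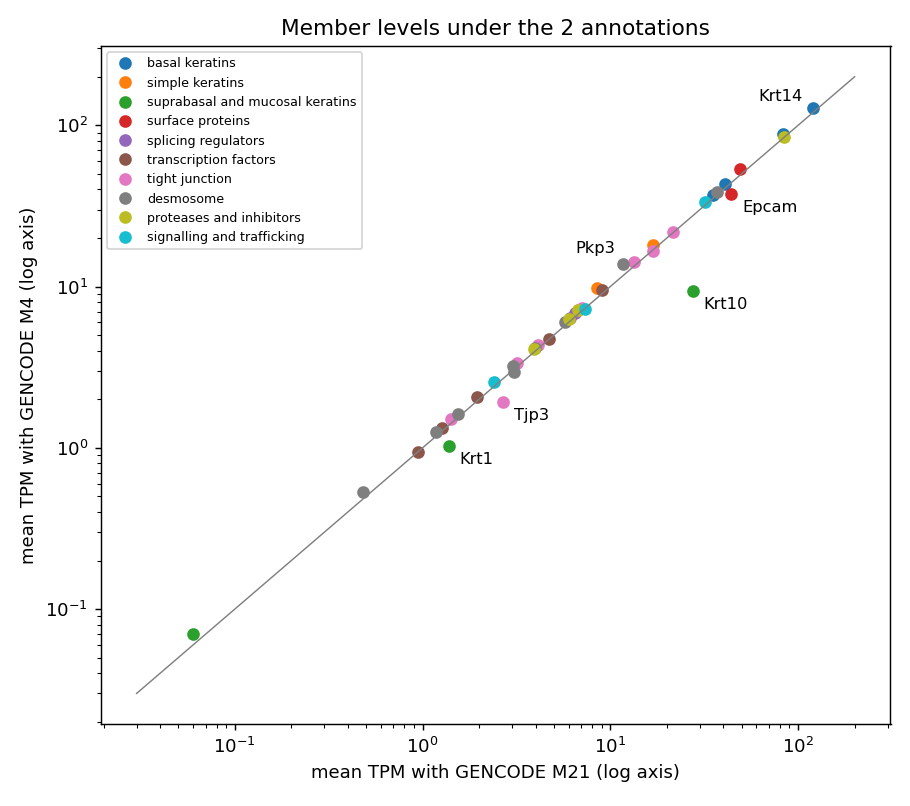
Mean TPM of each detected member with GENCODE M4 (vertical, log axis) against GENCODE M21 (horizontal, log axis), coloured by role, with the line of equal values. Krt10 lies well below the line, at 0.34 of its M21 level, and the others lie close to it.

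Some members are neighbours in the genome, and others share only a chromosome. Chromosome 11 holds 8 of the 44 (Krt10, Krt13, Krt15, Krt19, Krt14, Krt17, Jup and Cldn7), chromosome 15 holds 6 and chromosome 18 holds 4, the desmosomal cadherins. Cldn7 (chr11:69964779-69967885) lies far from the keratin genes of its chromosome, as does Grhl2 (chr15:37233036-37363569) from those of chromosome 15. Krt10 lies 728 kb from Krt13, with 69 genes between them. Levels differed widely between close neighbours: Krt13, with no reads, lies 10.2 kb from Krt15 with no annotated gene between them, and Krt15 lies 4.88 kb from Krt19 on the same strand. Krt8 and Krt18 lie 23.7 kb apart on opposite strands with no gene between them, and so do Cldn4 and Cldn3 at 39.3 kb. Dsg3 and Dsg2 lie 10.6 kb apart and Dsc3 and Dsc2 28.3 kb apart.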

How the data were processed

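The authors deposited, for each gene, an expected count, TPM and FPKM, and for each transcript also its percent of the gene, in an RSEM-style layout, per the file headers. Quantification used GENCODE M21 and M4 on mm10, per the labels. How reads were aligned, which program version estimated the counts and whether strand was used were not given in the labels or headers. Effective length equals length less 99 nt in the tables, and TPM of short transcripts therefore rests on few reads.

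M21 was the main annotation. tRNA and spike-in entries stayed out of library sizes and gene counts. Expected counts were rounded for the library test (edgeR 4.0.16, R 4.3.3, scipy 1.17.1), which was tested on simulated data, and genes at a mean of 1 TPM were tested. Transcript shares are percent of a gene's summed transcript TPM, computed here. Stretches of 100 bases shared with other genes were counted in the M21 transcripts. Floors of 3 reads cover counting error only. Replicate numbers come from the labels, which call them biological. With 1 group, p-values compare libraries, and the spread between them may be technical.

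All 44 members are named. Of each other epithelial list the 3 most abundant genes and the lowest were taken, with the members that differed most between annotations and those whose leading transcript held under 75%. A gene of the tight junction list is not reported here. Marker lists are given as sums and counts. Other genes named were chosen after their values were seen. Members, lists, motifs and pairs were chosen with earlier results of these data known. Alternatives were DESeq2 1.42.0 size factors, total counts, other minima, M4, FPKM, a pseudocount of 1, posterior mean TPM, counts without length, a shorter promoter window and either library alone.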

Additional observations from a re-analysis of the deposited data

How the results depend on the processing

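No paired analysis was possible because the series holds 1 group. The count of 40 members at 1 TPM was within 1.5 times under the alternatives tried, save 24 members at a minimum of 5 TPM. With either library alone it was 40. The median of 6.31 TPM was 6.89 TPM when rescaled over nuclear genes, 6.74 TPM over members at 1 TPM in both libraries, and 5.94 to 6.47 TPM with either library alone. The median leading transcript share was 72.3% to 80.2% with either library alone. At a 1.5-fold minimum 2 of 40 members were called between libraries (Pkp1 and Grhl1), beside 435 of 15926 genes. With no fold minimum 11 of 40 were called, beside 3081 of 15926 genes (19.3%). With M4 1 member was called (Pkp1, at 2-fold), beside 145 of 15114 genes. Over all genes 170 were called, against 378 with no filter, 38 with a filter at 5 TPM, 435 at a 1.5-fold minimum, 3081 with no fold minimum, 95 with the fold on log2(TPM + 1) and 99 with the edgeR exact test. The E2 box stood in 15.7% of all genes and 64.0% of members when the window began 150 bases before the start.

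Of 25 pairs with a finite spread 13 were past it, and 14 to 17 with either library alone. With the spread over protein-coding genes, an alternative chosen after seeing the data, 18 were past it. Pkp2 over Pkp3, Grhl2 over Grhl1 and Grhl2 over Grhl3 were among them. With expected counts not divided by length the mean log2 ratio was -0.027 for Krt14 over Krt5, 0.57 for Ovol1 over Ovol2 and -0.36 for Spint1 over St14, each turned in sign, and the construction leaves out transcript length. Krt18 over Krt8 and Cldn6 over Cldn1 were then no longer past the spread. The fold then was 7.37 for Krt10 over Krt1, 2.22 for Cldn6 over Cldn1, 21.4 for Tjp1 over Tjp3, 26.9 for Tjp1 over Ocln, 3.37 for Jup over Dsp and 6.53 for Spint2 over Spint1. Epcam over Perp was past the M21 spread with M4 (-0.50) and with these counts (-0.39). Also past it with these counts were Cldn6 over Cldn7 (fold 2.00), Cldn3 over Cldn4 (fold 0.40) and St14 over Prss8 (fold 2.74). Esrp1 over Esrp2 was -0.12 with posterior mean TPM, and Pkp2 over Pkp1 was 0.26 without replicate 1 and -0.86 without replicate 2; the cause was not tested. Depth limits Krt4, Krt13, Krt1, Ovol2 and Rab25, which rest on 49 reads or fewer in each library.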
